A study of Mus musculus with 9 samples.

Results

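Hemoglobin and red blood cell genes were followed in neutrophils sorted from skin and from skin lesions of mice. The set held 9 genes, namely Hbb-b1, Hbb-b2, Hba-a1, Alas2, Bpgm, Slc4a1, Fech, Ahsp and Slc25a37, of 34797 gene names on the array. Every probe that is not a control and carries 1 of these names was taken, which gave 10 of 55681 probes, with 2 probes for Slc25a37 and 1 for each other gene. The genes had been chosen on their levels in tumor and papilloma, where the globins differed, so that the values of this comparison are a description and carry no test.

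All animals were FVB/N mice that received the carcinogen DMBA on the skin at 6 and 13 weeks of age and the tumor promoter PMA repeatedly from week 1 to week 18 to 20. Gr-1bright neutrophils were sorted by flow cytometry from 4 sites, and each site is 1 group. Papilloma skin (2 arrays) and tumor skin (2 arrays) are the skin beside the lesions, papilloma (3 arrays) is the precancerous lesion and tumor (2 arrays) is the carcinoma. No array came from untreated mice. The RNA on an array was a pool of several mice, and the spread between single mice was not measured.

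Hemoglobin is a tetramer of alpha and beta globin chains, each of which holds a heme group that binds oxygen. Red blood cell precursors make these chains together with heme, which Alas2 starts and Fech completes, and with the chaperone Ahsp, which holds free alpha globin. Mature red cells of the blood have lost their nucleus but still carry remnants of such mRNAs, whereas neutrophils are not known as hemoglobin producers.

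The probes are 60 bases long and read the transcripts named on the array. Of the 9 genes, 7 had a probe placed on the mouse genome by the array files (build mm9). Hbb-b1 was read on chromosome 7 from 110961105 to 110961164 (minus strand) and Hba-a1 on chromosome 11 from 32183955 to 32184014 (plus strand). Alas2 was read on chromosome X from 147004993 to 147005052 and Bpgm on chromosome 6 from 34454792 to 34454851, both on the plus strand. Slc4a1 was read on chromosome 11 from 102210256 to 102210315 on the minus strand. The Slc25a37 probes lay on chromosome 14 from 69860020 to 69860079 and from 69902797 to 69902856 (minus strand). Hbb-b2 and Ahsp were given no position. Which exon or UTR each probe reads was not analysed here.

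Globin genes are near copies of each other, and the probe sequences show how far the array could tell them apart. The accession of the Hbb-b1 probe is called Hbb-bt in RefSeq (GRCm38.p6). The array files list transcripts of both alpha genes for the Hba-a1 probe, so that its signal is the sum of Hba-a1 and Hba-a2. They list 4 RefSeq transcripts for the Hbb-b2 probe and 1 for the Ahsp probe. These 3 probes are shown because the results turn on both globin chains and their chaperone. Each is free of stop codons in 1 reading frame and is written 5′ to 3′ in lower case:
Hba-a1: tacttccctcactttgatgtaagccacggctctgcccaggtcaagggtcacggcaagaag
Hbb-b2: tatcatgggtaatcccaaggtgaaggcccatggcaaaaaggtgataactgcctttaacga
Ahsp: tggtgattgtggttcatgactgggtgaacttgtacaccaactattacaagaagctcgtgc

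Of the 9 genes, 4 had an entry in the RefSeq promoter table (GRCm38.p6), and 3 are shown because their levels had the most alike course over the arrays. The sequences run 5′ to 3′ over the 250 bases before the start. They come from chr7:103813924-103814173 on the minus strand for Hbb-bt, and from chr11:32283422-32283671 for Hba-a1 and chrX:150547167-150547416 for Alas2, both on the plus strand. Capitals mark 7 words on either strand, where words 1 to 4 count as 1 kind, the GATA words. Word 1 is AGATAA, word 2 is AGATAG, word 3 is TGATAA, word 4 is TGATAG, word 5 is CACCC, word 6 is CCAAT and word 7 is TATAA:
Hbb-bt: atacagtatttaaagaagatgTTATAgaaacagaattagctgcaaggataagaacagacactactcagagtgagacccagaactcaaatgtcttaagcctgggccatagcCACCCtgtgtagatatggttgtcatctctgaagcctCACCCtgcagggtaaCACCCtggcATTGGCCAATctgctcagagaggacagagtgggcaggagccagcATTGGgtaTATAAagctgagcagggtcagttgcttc
Hba-a1: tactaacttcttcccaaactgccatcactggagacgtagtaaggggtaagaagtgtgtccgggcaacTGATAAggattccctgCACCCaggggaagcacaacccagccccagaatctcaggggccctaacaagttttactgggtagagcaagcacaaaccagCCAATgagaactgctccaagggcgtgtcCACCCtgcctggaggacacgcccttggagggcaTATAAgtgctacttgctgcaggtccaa
Alas2: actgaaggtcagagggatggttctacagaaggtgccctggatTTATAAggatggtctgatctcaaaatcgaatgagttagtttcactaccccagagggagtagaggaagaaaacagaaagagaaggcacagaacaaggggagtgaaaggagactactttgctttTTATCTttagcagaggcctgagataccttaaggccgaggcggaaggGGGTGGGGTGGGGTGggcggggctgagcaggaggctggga
Hba-a1 held words of all 4 kinds, as did 1.08% of the 32851 promoters in the table. A GATA word stood in Hba-a1 and Alas2 and in 26.5% of all promoters, and none stood in this window of Hbb-bt. CACCC stood in all 3 and in 52.0% of all promoters, and CCAAT in both globins and in 33.8%. TATAA began 28 bases before the start in Hbb-bt and 27 bases before it in Hba-a1, and 22.8% of all promoters held the word anywhere. The TATAA words of Alas2 overlapped on opposite strands, 208 and 207 bases before the start. A word match describes the letters and is not a measured binding site.

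Values come from a deposited table of 1 log2 level per probe and array, on which a difference of 1 is a 2-fold change. Scanner files were deposited too, and they and the table disagreed for some arrays. Across probes, which are not independent replicates, the table columns papilloma skin 1 and tumor 1 had a Spearman's rho of 0.587 and 0.825 with their own scanner files and of 0.923 and 0.946 with the file of tumor 2. For papilloma 2 and papilloma 3 the nearest file was that of the other one, with rho of 0.981 and 0.958. The scanner files of papilloma skin 1, tumor skin 1 and tumor 1 also stood apart, with a spike-in slope of 0.678 to 0.894 against 1.04 to 1.06 on the other 6 arrays and with 90.7% to 95.0% of probes well above background against 43.6% to 63.6%. Results are therefore given from the table and then from the scanner files, and without the arrays in doubt. The part of the mismatch in the results was not tested.

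The beta globin gene Hbb-b1, which encodes a chain of adult hemoglobin, had log2 levels of 14.57 and 15.31 in papilloma skin, 14.39 and 15.21 in tumor skin, 13.04, 13.04 and 11.65 in papilloma, and 16.99 and 17.72 in tumor. Both tumor arrays lay above all other arrays, all papilloma arrays lay below all others, and the skin groups overlapped. The other beta globin probe, Hbb-b2, gave 13.85 and 14.78 in papilloma skin, 13.74 and 14.72 in tumor skin, 12.60, 12.41 and 11.27 in papilloma, and 16.39 and 16.89 in tumor. The alpha globin probe Hba-a1 gave 14.69 and 15.51 in papilloma skin, 14.67 and 15.20 in tumor skin, 13.36, 13.53 and 12.25 in papilloma, and 17.45 and 17.83 in tumor. The order of the groups was thus the same for alpha and beta chains, with papilloma 3 the lowest array for each of the 3 probes. Globin signal was well above background on all 9 scanner arrays, papilloma included.

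Alas2, the first and rate-limiting enzyme of heme synthesis in red cell precursors, had log2 levels of 9.39 and 10.20 in papilloma skin, 9.04 and 10.25 in tumor skin, 8.57, 8.04 and 7.26 in papilloma, and 12.26 and 12.72 in tumor. It shared the globin pattern, with tumor above and papilloma below every skin array. Fech, which inserts iron to finish heme and was read on chromosome 18 from 64616928 to 64616987 (minus strand), gave 9.95 and 10.04 in papilloma skin, 9.94 and 10.31 in tumor skin, 9.49, 9.44 and 9.17 in papilloma, and 11.81 and 12.12 in tumor. Its groups were in the same order at the ends, and the distance of papilloma from skin was smaller than that of tumor from skin.

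Ahsp, the alpha globin chaperone, had log2 levels of 6.20 and 6.26 in papilloma skin, 6.16 and 6.41 in tumor skin, 5.70, 5.89 and 5.05 in papilloma, and 8.33 and 9.61 in tumor. Its probe was not well above background on any papilloma array nor on tumor skin 2, so that its papilloma level is only an upper bound. Over the 7 arrays outside tumor its mean was 5.95, under the level minimum of 6 used in the tests, so that Ahsp passed this minimum through the tumor arrays. The other 9 probes passed it without them.

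Slc4a1, the anion exchanger of the red cell membrane known as band 3, gave 6.87 and 7.14 in papilloma skin, 7.08 and 7.53 in tumor skin, 6.78, 6.76 and 6.26 in papilloma, and 8.99 and 9.56 in tumor. Tumor lay above all other arrays, and the papilloma skin and tumor skin arrays overlapped. Bpgm, the enzyme that makes the hemoglobin ligand bisphosphoglycerate, gave 8.19 and 8.46 in papilloma skin, 7.44 and 8.52 in tumor skin, 8.38, 7.72 and 7.58 in papilloma, and 10.34 and 10.85 in tumor. Papilloma and skin overlapped for Bpgm, and tumor stood apart.

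Slc25a37, also called mitoferrin 1, carries iron into mitochondria for heme synthesis, and it had the flattest course of the 9 genes. On probe A_51_P343429 it gave 11.46 and 11.91 in papilloma skin, 12.19 and 11.91 in tumor skin, 11.72, 11.93 and 11.68 in papilloma, and 12.37 and 12.54 in tumor. On probe A_55_P2032445 it gave 8.00 and 8.63 in papilloma skin, 8.85 and 8.20 in tumor skin, 8.14, 8.87 and 8.21 in papilloma, and 8.96 and 8.86 in tumor. The second probe had tumor and papilloma arrays that overlapped.

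**Figure D1:**
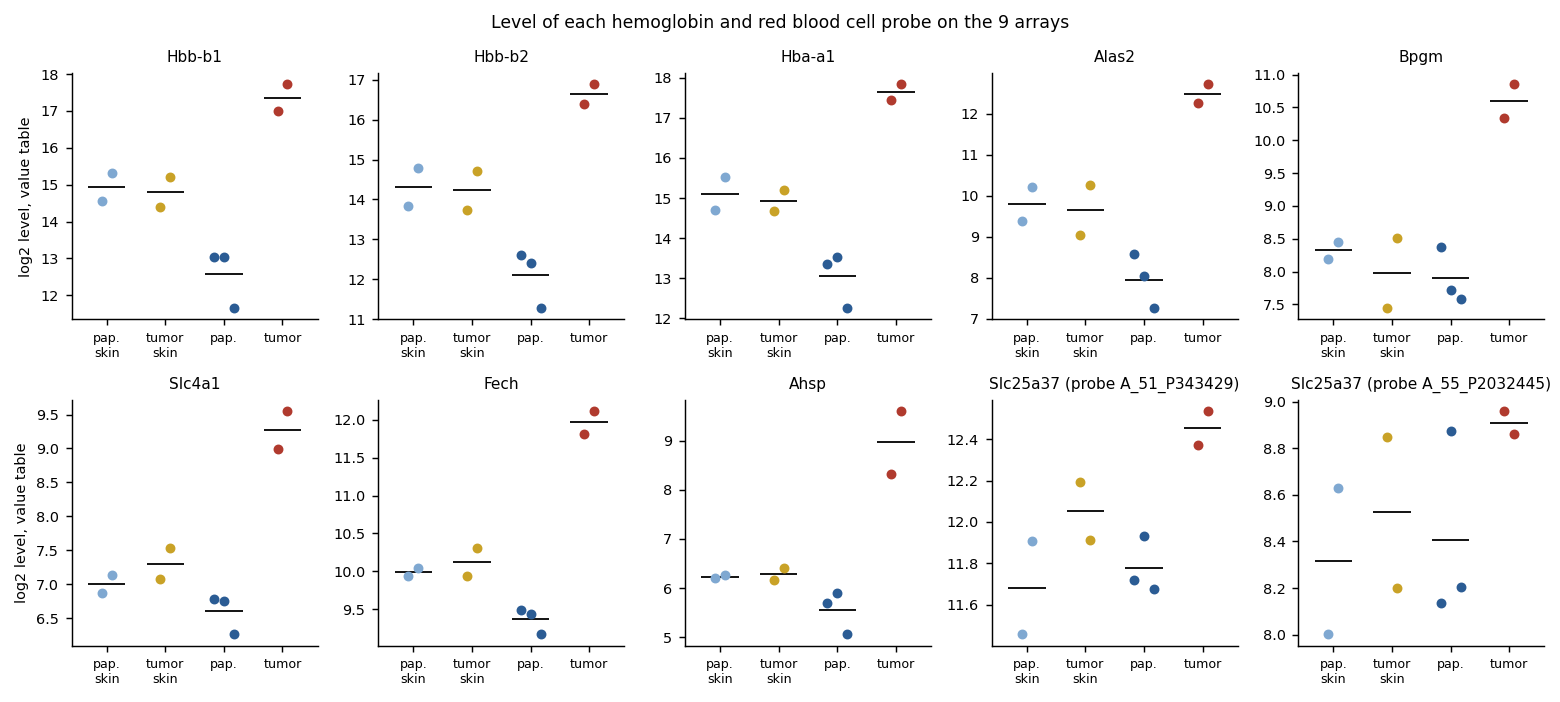
Log2 level (value table, y axis, own scale in each panel) of each of the 10 probes in papilloma skin (pap. skin), tumor skin, papilloma (pap.) and tumor. Points are arrays in the order of their number and lines are group means, and tumor holds the highest mean in all 10 panels.

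The rank of group means was tumor highest for all 10 probes and papilloma lowest for 8. The skin groups held the middle for these 8 probes, papilloma skin above tumor skin for 5 (the globins, Alas2 and Bpgm) and below it for 3 (Ahsp, Fech and Slc4a1). For Slc25a37 papilloma skin was lowest. Papilloma skin and tumor skin overlapped for 9 of 10 probes. Of all probes, 24.2% were higher and 24.7% lower in tumor skin without overlap. Papilloma also overlapped papilloma skin and tumor skin for Bpgm and for both Slc25a37 probes.

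Between tumor and papilloma, the contrast that chose the set, the differences of the group means were as follows. Hbb-b1 was 4.78 higher in tumor on the log2 scale (27.5-fold), Hba-a1 4.60 (24.2-fold), Hbb-b2 4.54 (23.3-fold) and Alas2 4.53 (23.2-fold). Ahsp was 10.7-fold higher in tumor by its table levels. Its probe was not well above background in papilloma. In the scanner files the means of Ahsp differed 9.26-fold, with tumor 1 at 4.89 and tumor 2 at 9.82 on the log2 scale. Bpgm was 6.50-fold, Slc4a1 6.37-fold and Fech 6.05-fold higher. The Slc25a37 probes were 1.60-fold and 1.42-fold higher. Arrays did not overlap for 9 of 10 probes, against 18% of all probes that were higher in tumor without overlap, and by the test of this contrast 0.113% of all probes were called higher. Ordered by their difference among all 55681 probes, Hbb-b1, Hba-a1, Hbb-b2 and Alas2 took ranks 3 to 6, Ahsp 13, Bpgm 22, Slc4a1 24, Fech 25, and Slc25a37 2236 and 4261. These ranks repeat the choice of the set.

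The comparison of tumor with tumor skin asked how neutrophils inside a carcinoma differ from those of the skin around it. It shares the tumor arrays with the contrast that chose the set, and the members had been picked with high tumor values, so that its counts are not independent of that choice. Globins, heme enzymes, Ahsp, Slc4a1 and Bpgm were all higher in tumor, and 8 of 10 probes passed the test (limma, Benjamini-Hochberg adjusted p of at most 0.05, at least 2-fold, mean log2 level of at least 6), where 2.71% of all probes were called higher and 1.51% lower. In bulk RNA a change in the number of cells that carry an mRNA and a change in RNA per cell cannot be told apart. The median log2 fold change was 2.48 over the 10 probes and -0.02 over all probes. No array of tumor skin reached a tumor array for any of the 10 probes, as was so in this direction for 25.7% of all probes.

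The globins rose 5.89-fold for Hbb-b1 (log2 fold change 2.56, SE 0.53, limma adjusted p = 0.0234), 6.54-fold for Hba-a1 (2.71, SE 0.45, adjusted p = 0.0105) and 5.30-fold for Hbb-b2 (2.41, SE 0.52, adjusted p = 0.0269). Among the heme enzymes, Alas2 rose 7.17-fold (limma adjusted p = 0.0145) and Fech 3.58-fold (limma adjusted p = 0.00232). Fech had the smallest adjusted p of the set, and its SE was 0.19. Ahsp rose 6.43-fold (limma adjusted p = 0.00805), but it was well above background on 1 of 2 tumor skin arrays only and reached the level minimum through the tumor arrays, so that it had to be high there to be called. Bpgm rose 6.13-fold (limma adjusted p = 0.00737) and Slc4a1 3.91-fold (limma adjusted p = 0.00579). The Slc25a37 probes, at 1.32-fold and 1.31-fold, did not pass (limma adjusted p = 0.234 and 0.492). Without tumor 2 only Slc4a1, Fech and Ahsp passed, and without tumor 1 or tumor skin 1 the count was 5.

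In papilloma versus papilloma skin the globins went the other way. This contrast shares the papilloma arrays with the one that chose the set. Here 3 of 10 probes, all globins, were called lower, where 1% of all probes were called lower and 2.18% higher. Hbb-b1 fell 5.14-fold (log2 fold change -2.36, SE 0.48, limma adjusted p = 0.0261), Hbb-b2 4.66-fold (-2.22, SE 0.47, adjusted p = 0.0308) and Hba-a1 4.16-fold (-2.06, SE 0.41, adjusted p = 0.0234). Alas2, at a log2 fold change of -1.84, missed the threshold (limma adjusted p = 0.0582), as did Fech at -0.62 (limma adjusted p = 0.083). Without papilloma skin 2 no probe passed, and without papilloma skin 1 only Hba-a1 did.

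The other members differed less between papilloma and its skin. Ahsp was at -0.68 on the log2 scale (limma adjusted p = 0.349), Bpgm at -0.43 (0.551) and Slc4a1 at -0.40 (0.408), whereas the Slc25a37 probes were at 0.09 and 0.09 (limma adjusted p = 0.82 and 0.905). For Ahsp this is a mean in papilloma skin 1.61-fold that in papilloma, a difference that did not pass. Papilloma lay below papilloma skin without overlap for 7 of 10 probes, against 17.8% of all probes. The median log2 fold change was -0.65 over the set and -0.01 over all probes.

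**Figure D2:**
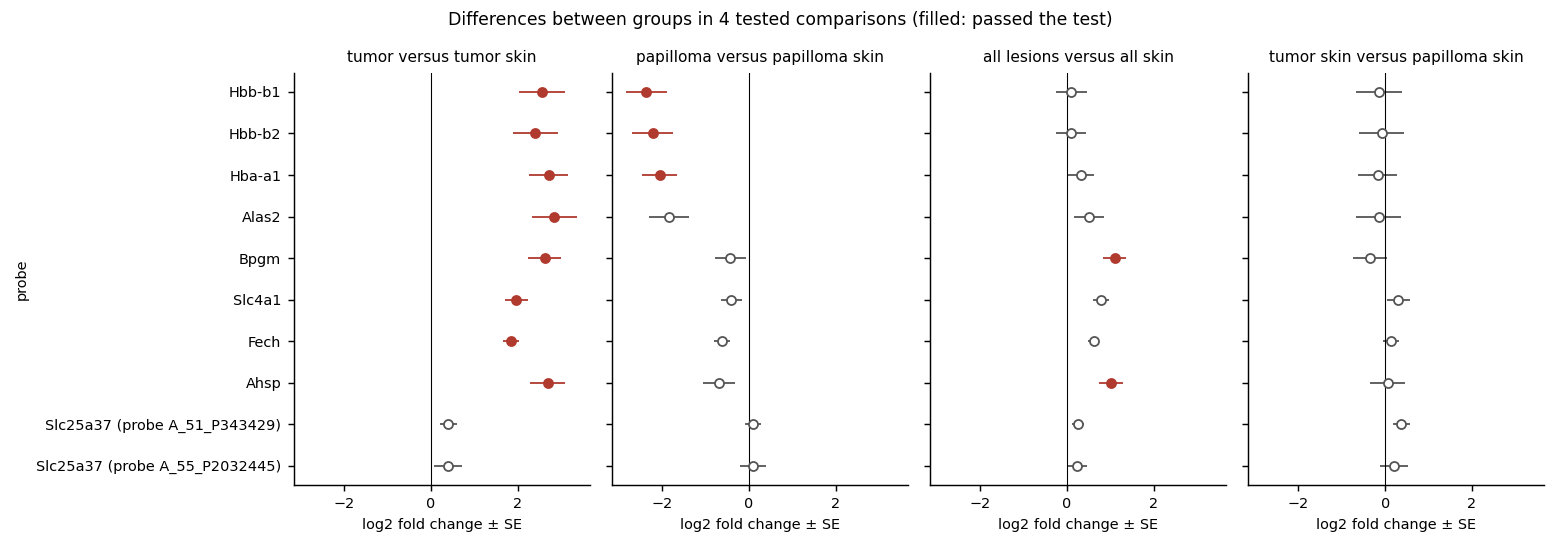
Log2 fold change with its SE (x axis) of each probe (y axis) in 4 tested comparisons, from limma on the value table. Filled points passed the test, which were 8 higher in tumor versus tumor skin, 3 lower in papilloma versus papilloma skin, 2 higher in all lesions versus all skin and 0 in tumor skin versus papilloma skin.

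Across both stages, all lesions versus all skin asks what tumor and papilloma share. It uses all tumor and papilloma arrays of the contrast that chose the set and is not independent of it. Bpgm was 2.13-fold higher in lesions (log2 fold change 1.09, SE 0.26, limma adjusted p = 0.0275) and Ahsp met the call rule too, so that 2 of 10 probes were called, against 2.29% of all probes called higher and 1.33% called lower. Ahsp reached the level minimum through the tumor arrays and was not measured above background in papilloma, so that no fold is given for it. In papilloma alone the mean of Bpgm was lower than in papilloma skin, so that its higher mean in lesions came from tumor. No probe was called without papilloma skin 1, papilloma skin 2, tumor skin 1, papilloma 1 or tumor 2. Slc4a1 at 0.78 (limma adjusted p = 0.0253) and Fech at 0.61 (limma adjusted p = 0.0178) passed on p and were under a 2-fold change. The globins were near 0, at 0.10 for Hbb-b1, 0.09 for Hbb-b2 and 0.33 for Hba-a1 (limma adjusted p = 0.885, 0.889 and 0.516), since tumor and papilloma lay on either side of skin. For no probe of the set were all lesion arrays clear of all skin arrays. Over all probes 7.49% were clear as higher and 4.65% as lower, so that this count says little about the members.

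Tumor skin versus papilloma skin shares no array with the contrast that chose the set. By limma 0 of 10 probes were called, 0 had an unadjusted p under 0.05, and 0.26% of all probes were called in either direction. The log2 fold changes ran from -0.35 for Bpgm to 0.37 for Slc25a37 (probe A_51_P343429), with a median of -0.01. For Hbb-b1 the difference was -0.14 with an SE of 0.53. Missing the threshold does not show that the skins were alike.

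The scanner files gave another picture of the first tumor array. In them, after quantile normalization, Hbb-b1 was at 12.01 and 15.11 in papilloma skin, 14.41 and 15.60 in tumor skin, 13.49, 11.32 and 13.28 in papilloma, and 13.99 and 17.57 in tumor. Tumor 2 was again the highest array, but tumor 1 lay below both tumor skin arrays. Slc4a1 and Ahsp showed the same split, at 4.63 and 9.88, and at 4.89 and 9.82, in tumor 1 and tumor 2. Tumor 1 also lay below both tumor skin arrays for Alas2 and Slc25a37 probe A_55_P2032445. For Hbb-b2, Hba-a1, Bpgm, Fech and Slc25a37 probe A_51_P343429 it lay between them. The gap between the tumor arrays was 0.82 to 5.25 on the log2 scale over the 10 probes in the scanner files and -0.10 to 1.28 in the table.

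The mean over the 3 globin probes differed most between the sources on 4 arrays. It was 14.4 in the table and 11.6 in the scanner file for papilloma skin 1, and 16.9 and 14.3 for tumor 1. It was 13.0 and 11.4 for papilloma 2, and 11.7 and 13.2 for papilloma 3. On tumor 2 it was 17.5 and 17.3.

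**Figure D3:**
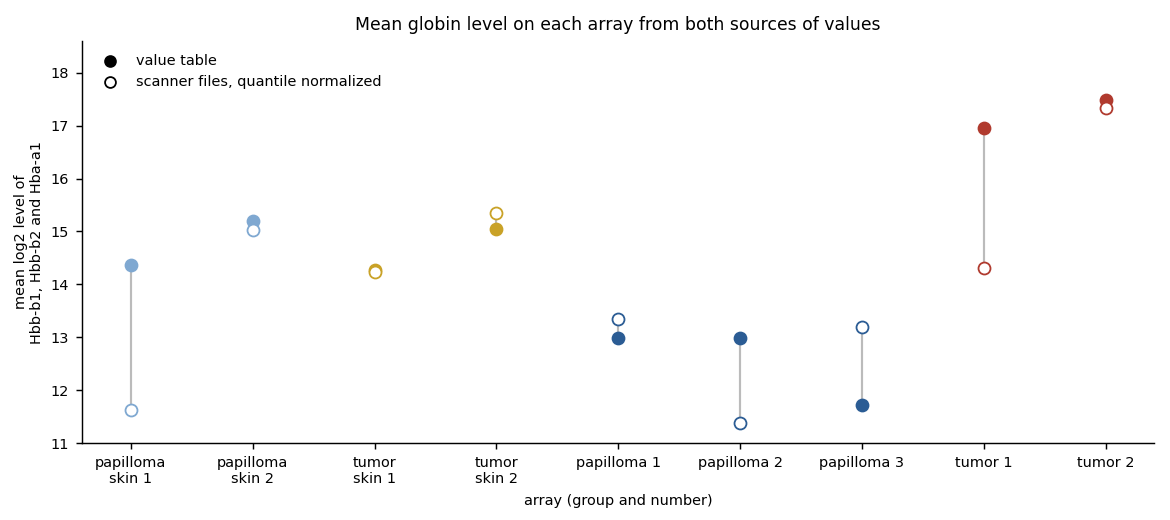
Mean log2 level of Hbb-b1, Hbb-b2 and Hba-a1 (y axis) on each of the 9 arrays (x axis) in the value table (filled) and in the quantile normalized scanner files (open), joined by a line. Tumor 2 is near 17 in both, and papilloma skin 1 and tumor 1 are lower in the scanner files than in the table.

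With scanner values no member was called by limma in any of the 4 tested comparisons, under each of 6 ways to scale them. In 5 of these 6 fits no probe of the whole array was called in tumor versus tumor skin or in papilloma versus papilloma skin, so that the count of 0 is no result about the members. With ComBat 122 and 3963 of all probes were called in these comparisons. With all 9 arrays 0 member probes had an unadjusted p under 0.05 in tumor versus tumor skin, and 0 or 1 in papilloma versus papilloma skin. The mean globin difference of tumor versus tumor skin was 1.02 on the log2 scale with quantile normalization and 2.08 over the 6 arrays whose spike-in slope was full. Tumor 2, tumor skin 2 and papilloma skin 2 are each alone in their group among these 6 arrays, so that the spread comes from the papilloma arrays and the values have no replicate check. All 10 probes were higher in tumor 2 than in tumor skin 2 there. Of papilloma versus papilloma skin the globin mean was -0.69 with all arrays and -2.44 with the 6, where all 10 probes were lower in papilloma than in papilloma skin 2. In the value table without papilloma skin 1 and tumor 1, all 10 probes were higher in tumor than in tumor skin. The globins and Alas2 had log2 fold changes over 2.6 there. Tumor 2 and papilloma skin 2 are then alone in their groups, so that these values have no replicate check either. The Ahsp probe was not well above background on tumor skin 2, and its value there rests on tumor 2. No probe passed in papilloma versus papilloma skin there.

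The arrays sat on 3 slides, slide 1 with the first array of each group, slide 2 with papilloma skin 2, papilloma 2 and tumor 2, and slide 3 with tumor skin 2 and papilloma 3. Within slide 1 the globin mean of the table was 2.68 higher in tumor than in tumor skin and 1.37 lower in papilloma than in papilloma skin, and within slide 2 papilloma was 2.21 lower than papilloma skin. In the scanner files the same differences were 0.07, 1.71 and -3.65, so that papilloma was above papilloma skin on slide 1 and below it on slide 2. Slide 3 held no such pair. With slide as a term in the model of the table no member was called, with 8 of 10 probes at an unadjusted p under 0.05 in tumor versus tumor skin (limma, smallest adjusted p 0.0593) and 5 of 10 in papilloma versus papilloma skin (0.0709).

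Other red cell genes were read from lists of known function, chosen with earlier results of these data known. Among the other globins, Hba-a2, the second adult alpha gene, rose in tumor versus tumor skin (log2 fold change 1.85, limma adjusted p = 0.0481) and fell in papilloma versus papilloma skin (-2.27, limma adjusted p = 0.0211), on levels of 17.06 and 17.58 in papilloma skin, 16.41 and 17.18 in tumor skin, 15.51, 15.46 and 14.17 in papilloma, and 18.34 and 18.95 in tumor. This is the order of the Hba-a1 probe, for which transcripts of both genes are listed. The embryonic globins Hba-x, Hbb-bh1 and Hbb-y stayed between 4.67 and 6.90 in every array and none was called. Of 14 probes for 10 other globins, 1 was called higher in tumor versus tumor skin, with a median of 0.23, and Cygb (cytoglobin, which is made in many tissues) was called higher in papilloma versus papilloma skin.

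Red cell enzymes and late red cell genes had 5 of 17 probes called higher in tumor versus tumor skin, with a median of 0.88. Among them were Car2 (carbonic anhydrase) at a log2 fold change of 2.46 (limma adjusted p = 0.00361), Ube2o (a ubiquitin enzyme of reticulocytes) at 1.16 (0.00403), Xpo7 at 1.16 (0.0476) and Bnip3l (which clears mitochondria) at 1.07 (0.00393). Car2 and Ube2o were at 0.16 and 0.13 in papilloma versus papilloma skin and did not pass (limma adjusted p = 0.788 and 0.637). The second Xpo7 probe was at -0.06 and did not pass. The other Bnip3l probes were at 0.98, 0.88 and 0.52 in tumor versus tumor skin and did not pass either (limma adjusted p = 0.0123, 0.00908 and 0.192). In papilloma versus papilloma skin the Bnip3l probes were at 0.85 to 1.05, above 0 unlike the globins. The probe at 1.05 was called higher there (limma adjusted p = 0.00296).

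The other heme enzymes, 10 probes for 7 enzymes, had a median log2 fold change of 0.39 in tumor versus tumor skin. There 0 were called higher and 1, Ppox, was called lower (log2 fold change -1.13, limma adjusted p = 0.021). With 2.71% of all probes called higher and 1.51% lower, these counts say little. None was called in papilloma versus papilloma skin, where 2.18% of all probes were called higher and 1% lower. Among 17 probes for heme transport and breakdown, Hmox1, which degrades heme, rose in tumor versus tumor skin on 1 of its probes (2.82, limma adjusted p = 0.0422), and Hp, the hemoglobin scavenger haptoglobin that neutrophils also make, fell in papilloma versus papilloma skin (-1.27, limma adjusted p = 0.00271). For iron, 3 of 20 probes rose and 1 fell in tumor versus tumor skin. Tfrc, the transferrin receptor, rose on 2 of 3 probes by 1.68 and 1.25 and in papilloma by 1.23 and 1.25, Glrx5 rose by 1.13, and Slc40a1, the iron exporter, was at -1.64 (limma adjusted p = 0.00403, 0.0067, 0.00828, 0.00449, 0.0383 and 0.0172).

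Genes of the red cell membrane and skeleton other than Slc4a1 were called on 0 of 25 probes in tumor versus tumor skin, with a median of 0.13. Only 10 of these probes reached the level minimum, and 2.71% of all probes were called higher, so that a count of 0 says little. The brightest Epb4.1 probe was at 0.98 (limma adjusted p = 0.0246), under a 2-fold change, and its other probes were at -0.03 and 0.29. The brightest Ermap probe was at -1.05 and did not pass (limma adjusted p = 0.0629). Among 11 probes of erythroid transcription factors, none rose, and Gata1, a regulator of globin genes that eosinophils and mast cells also use, and Nfe2 were called lower, at -1.69 and -1.64 (limma adjusted p = 0.00533 and 0.00525). Gata1 was at 8.28 and 8.36 in papilloma skin, 6.96 and 7.48 in tumor skin, 6.42, 6.02 and 6.30 in papilloma, and 5.73 and 5.33 in tumor, an order that differs from that of the globins in having tumor lowest.

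**Figure D4:**
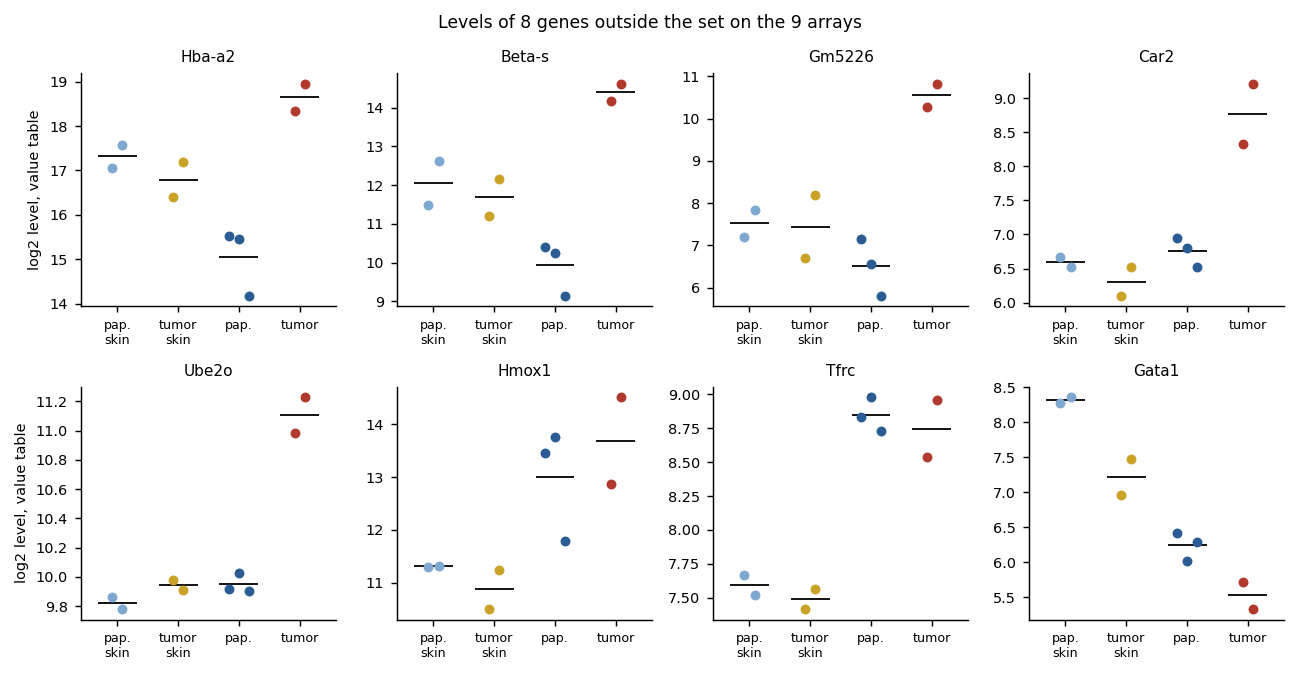
Log2 level (value table, y axis, own scale in each panel) of 8 genes outside the set in papilloma skin (pap. skin), tumor skin, papilloma (pap.) and tumor, with arrays as points and group means as lines. Hba-a2, Beta-s and Gm5226 have the highest mean in tumor and the lowest in papilloma, Tfrc has both lesions above both skins, and Gata1 has tumor lowest.

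The genes most like the globins were sought among 14898 genes by the mean absolute distance of their centred log2 levels from the centred globin mean over the 9 arrays. The nearest was Beta-s, a beta globin entry of the array, at 0.13, which is no independent gene. Among the next were Gm5226 at 0.46, Zdhhc22 at 0.51 and Slc6a20a at 0.76, where the median gene was at 1.45. Of the members outside the globins, Alas2 was at 0.20, Ahsp at 0.62, Fech at 0.73, Slc4a1 at 0.76, Bpgm at 0.85, and Slc25a37 at 1.31 and 1.38. Gm5226, a predicted pseudogene, was at 7.20 and 7.83 in papilloma skin, 6.69 and 8.18 in tumor skin, 7.14, 6.55 and 5.80 in papilloma, and 10.28 and 10.82 in tumor.

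Markers of the cell types that the sort could hold were read beside these results. The mean log2 level of 8 neutrophil probes (Ly6g, S100a8, S100a9 and others) was 14.87 to 15.17 in papilloma skin, 15.52 to 15.82 in tumor skin, 14.28 to 14.57 in papilloma and 14.85 to 15.19 in tumor. Within this mean Ly6g was at -2.09 (limma adjusted p = 0.00894) and Mmp8 at -1.92 (0.00782) in tumor versus tumor skin, both called lower. S100a8 and S100a9 were at -0.09 and -0.02 and did not pass. Of 12 erythroid marker probes, 0 were called higher and 1 lower (Gata1) in tumor versus tumor skin. As 2.71% of all probes were called higher and 1.51% lower, these counts say little. The 4 erythroid probes above the level minimum averaged 9.82 to 10.30 in tumor skin and 9.29 to 9.53 in tumor. On those 6 arrays whose spike-in slope was full, Hemgn, Tspo2 and 1 of 3 Ermap probes were well above background on all 6 and Gata1 on 5, whereas Rhag and Kel were so on 1 and Klf1 and Epb4.2 on 0.

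Among markers of other cells, endothelial markers were called higher on 2 of 9 probes in tumor versus tumor skin and on 7 of 9 in papilloma versus papilloma skin, and keratinocyte markers on 3 and 2 of 14 probes. Platelet and megakaryocyte markers had 1 of 17 probes higher and 1 lower in tumor versus tumor skin, namely Ppbp (log2 fold change 5.54) and Itgb3 (-1.64), while Pf4 was at 0.55 and Gp5 and Gp1ba were near background. Fibroblast markers had 1 of 6 probes lower, macrophage markers 2 of 10 lower and neutrophil markers 2 of 8 lower in tumor versus tumor skin. In papilloma versus papilloma skin fibroblast and platelet markers had none called, macrophage markers 2 lower and neutrophil markers 1 lower. The part of other cells in the globin values was not tested.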

How the data were processed

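Neutrophil RNA from 4 sites was hybridized to 9 one-color Agilent arrays. The authors deposited 1 table of log2 levels per probe, and their methods name quantile normalization (limma) and ComBat without stating which of these the table holds. They also deposited scanner files with fluorescence intensity per spot, background-subtracted by Agilent's software and not scaled between arrays. Fold changes and p-values of the authors were not used. Of the value columns used, 0 lacked a sample.

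The table was fitted with limma 3.58.1 (R 4.3.3) with 4 groups and 5 residual degrees of freedom, which limits precision, over 55681 probes. Scanner intensity was log2 transformed over 59305 spots that are not controls, without outlier spots, averaged per probe (55155 complete probes), and quantile normalized. No spot was saturated. A bound against a background group takes the higher of the probe's own level and the lowest level well above background on each array. For Ahsp this bound equalled the plain difference of means, in the table and in the scanner files, so that it added no limit. The fit was tested on simulated data. Python 3.11.15, pandas 2.3.3 and matplotlib 3.10.9 drew figures.

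Groups came from sample labels. The methods call the arrays of a group biological replicates, each a pool of mice. The p-values of the table measure the spread between pools that is left after the authors' processing, which may differ from the spread before it. The main fit holds no term for slide. The members and lists were chosen with earlier results of these data known. Named are all members, list genes called in a tested comparison or with the 2 highest levels of their list, and, of the 5 genes most like the globins, those shown. Some genes that this rule names are not reported here. Other genes named (embryonic globins, Hemgn, Tspo2, Ermap, Klf1, Epb4.2, Rhag, Kel, platelet genes except Ppbp and Itgb3) were chosen after their values were seen. Alternatives covered source, scaling, slide, pairing, left-out arrays, unit, variance, level and threshold.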

Additional observations from a re-analysis of the deposited data

Results flagged for a closer look

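Lesion arrays stood on opposite sides of the mean of their skin at the tumor and the papilloma stage for 7 of the 9 genes, in the value table. For each, every tumor array lay above the tumor skin mean and every papilloma array below the papilloma skin mean, as was so for 6.69% of all probes. The mean differences at the tumor stage and the papilloma stage were 2.56 and -2.36 on the log2 scale for Hbb-b1, 2.41 and -2.22 for Hbb-b2, 2.71 and -2.06 for Hba-a1, and 2.84 and -1.84 for Alas2. They were 1.97 and -0.40 for Slc4a1, 1.84 and -0.62 for Fech, and 2.68 and -0.68 for Ahsp, whose probe was not well above background on tumor skin 2 or on any papilloma array, so that its papilloma value is a bound. The difference between the stages was not tested, and the pattern largely restates the tumor versus papilloma values that chose the genes.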

How the results depend on the processing

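All lesions versus all skin (2 called), tumor versus tumor skin (8) and papilloma versus papilloma skin (3) each fell to 0 under the 6 scanner alternatives (quantile without slide, with a slide term, with ComBat, 75th percentile, normexp, and 6 full-slope arrays) and with slide as a term on the table. Over all probes the scanner fits called 0 too in these comparisons, except 1755, 122 and 3963 with ComBat and 89 for all lesions versus all skin with normexp, and the slide term on the table left 1787, 209 and 981 of 2013, 2346 and 1769. Without papilloma skin 1 and tumor 1 the counts were 1, 4 and 0, and 2321, 1759 and 1018 over all probes. Tumor skin versus papilloma skin stayed at 0 under every alternative run. Leaving out each array gave 0 to 2, 3 to 8 and 0 to 4 called, with 3 without tumor 2, 5 without tumor 1 or tumor skin 1, and 0 without papilloma skin 2 and 1 without papilloma skin 1 (the remaining array of a group is then assumed to vary like the others). For all lesions versus all skin, 4 were called on adjusted p alone and 1 with the table quantile normalized again or with array weights.

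Deviations of same-numbered arrays correlated at 0.16 and 0.53 for papilloma skin with papilloma and at 0.39 for tumor skin with tumor. These were the 4 of 12 values over 0.1, and the other pairs of groups ran from -0.96 to -0.14. Both values of a pair of 2-array groups are equal by construction, so the 12 are not independent. They do not decide whether a lesion and its own skin were paired. With the replicate number as a block 1, 8, 2 and 0 member probes were called, and over all probes 737 against 2346 in tumor versus tumor skin and 552 against 1769 in papilloma versus papilloma skin.

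Directions turned for called values in 9 cases, all with scanner values. Ahsp in all lesions versus all skin went to -0.19 with quantile normalization, -0.34 with a slide term, -0.33 with ComBat and -0.50 at the 75th percentile. Slc4a1 in tumor versus tumor skin went to -0.29 with a slide term and -0.23 with ComBat. In papilloma versus papilloma skin the 75th percentile gave 0.16 for Hbb-b1, 0.15 for Hbb-b2 and 0.52 for Hba-a1. The cause was not tested. Of all member values recomputed, the sign changed in 7 of 228 for tumor versus tumor skin, 26 of 228 for papilloma versus papilloma skin, 56 of 228 for tumor skin versus papilloma skin, 29 of 218 for all lesions versus all skin and 3 of 218 for tumor versus papilloma. The globin mean of tumor versus papilloma was 2.54 to 3.39 in the scanner files and 4.85 with 6 arrays. Ahsp is dim, so its values in papilloma are limited by signal over background.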
